A study of Mus musculus with 2 samples.

Results

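The 8 genes described here encode cytokine and growth factor receptors of stem and progenitor cells: Kit, Epor, Flt3, Csf2rb, Csf3r, Il6st, Ifngr1 and Cxcr4. They were taken by name from the 28205 genes counted in single cells of mouse bone marrow, and all 8 were found. Their transcripts were followed in 3402 kept cells, each with at least 500 UMIs (unique molecular identifiers, one per captured transcript) of which at most 20% came from mitochondrially encoded genes.

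The marrow was lineage-depleted before sorting, per the labels. One source was Mds1-GFP/+ Flt3-Cre mice, whose cells were sorted only as live (DAPI-) and GFP+. The other was wild type mice, whose long-term hematopoietic stem cells were sorted by the SLAM scheme as DAPI-, Lin-, cKit+, Sca+, CD48- and CD150+. Both sorts were mixed into 1 pool, and 2 aliquots of that pool were run as inDrops droplet libraries. The labels give neither the ages nor the number of mice, and the strain tag of both libraries names only the reporter mice although most cells came from wild type mice, per the series design. Per the series design, 46 reporter cells remained after the authors' processing, by a filter not stated, and 71 of the cells kept here held a reporter UMI. The reporter cassette lies between loxP sites, and Cre was driven by Flt3, a gene of the set described here. The sort for cKit concerns the Kit protein of the wild type cells alone.

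Hematopoietic cells read soluble and membrane-bound factors through several receptor families. Kit and Flt3 are receptor tyrosine kinases for stem cell factor and FLT3 ligand. Kit is a defining surface protein of stem and early progenitor cells, and Flt3 marks multipotent progenitors with lymphoid and myeloid potential. Epor binds erythropoietin and sustains red cell precursors. Csf2rb is the shared beta chain of the receptors for GM-CSF, interleukin 3 and interleukin 5. Csf3r binds G-CSF, which drives neutrophil production. Il6st, known as gp130, is the signalling chain shared by the interleukin 6 family, and Ifngr1 is the ligand-binding chain of the interferon gamma receptor. These last 5 receptors lack kinase domains and signal through JAK kinases and STAT factors. Cxcr4 is the G protein-coupled receptor for CXCL12 and holds stem cells in the marrow.

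All 8 are protein-coding genes in GENCODE vM21 on GRCm38. Kit spans chromosome 5 from 75574916 to 75656722 on the plus strand and Flt3 chromosome 5 from 147330741 to 147400489 on the minus strand. Epor spans chromosome 9 from 21958897 to 21963506 (minus), Csf2rb chromosome 15 from 78325752 to 78353847 (plus) and Csf3r chromosome 4 from 126024550 to 126044440 (plus). Il6st spans chromosome 13 from 112464070 to 112510086 (plus), Ifngr1 chromosome 10 from 19591949 to 19610229 (plus) and Cxcr4 chromosome 1 from 128588199 to 128592293 (minus). Csf2rb has a near copy, Csf2rb2, and 28% of the 31-base words of its transcripts occur in that copy, against 1.28% of those in the last 500 bases. No source used here states how reads common to both were divided, so Csf2rb counts are uncertain to that extent. Csf2rb also overlaps the microRNA gene Mir7676-2 in an exon, and Flt3 overlaps the antisense gene Gm26597 outside its exons.

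The sequences upstream of Epor and Flt3 are printed because these 2 genes lay on opposite sides of 1 in cells with Gata1 or Klf1 transcripts, described further on. The interval of Epor includes 1 there, and neither gene had 20 UMIs counted or expected. Each sequence is the 250 bases before the start of the gene in RefSeq, build GRCm38.p6, on the gene's own strand, at chr9:21963577-21963826 for Epor and chr5:147400490-147400739 for Flt3. Capitals mark matches, on either strand, to AGATAA, the word GATA factors recognise, and to CCNCNCCC, the word KLF1 recognises.
Epor: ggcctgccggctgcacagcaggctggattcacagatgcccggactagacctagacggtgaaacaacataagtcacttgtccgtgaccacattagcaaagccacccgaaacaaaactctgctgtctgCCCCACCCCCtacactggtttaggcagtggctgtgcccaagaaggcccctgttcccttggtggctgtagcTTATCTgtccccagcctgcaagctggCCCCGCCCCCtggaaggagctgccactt
Flt3: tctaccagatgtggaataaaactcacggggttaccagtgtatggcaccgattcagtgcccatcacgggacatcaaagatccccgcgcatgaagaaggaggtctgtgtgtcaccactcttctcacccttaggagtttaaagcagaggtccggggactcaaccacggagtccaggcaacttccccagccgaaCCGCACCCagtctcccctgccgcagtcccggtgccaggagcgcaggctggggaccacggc

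The Epor window holds AGATAA once, on the opposite strand, from 54 to 49 bases before the start, where it reads TTATCT. It holds CCNCNCCC at 4 positions in 2 overlapping pairs, from 124 to 115 and from 28 to 19 bases before the start. The Flt3 window holds CCNCNCCC once, from 60 to 53 bases before the start, and these letters of AGATAA are not in it. Of 32851 RefSeq promoter windows of this length, 9.99% hold AGATAA and 45.9% hold CCNCNCCC. Among the other receptor genes, the windows of Kit, Csf3r, Ifngr1 and Cxcr4 hold CCNCNCCC as well, so it does not set Epor and Flt3 apart. A match describes the letters only.

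Both libraries come from the 1 pool, so no test between conditions was possible and every interval below covers counting error at 95% and nothing else. Aliquot 1 gave 1574 kept cells with a median of 946.5 UMIs, and aliquot 2 gave 1828 with a median of 2071.5. Among kept cells, 55 barcodes occurred in both files, which is 3.49% of those in aliquot 1 and 3.01% in aliquot 2. Whether any of them are the same cell was not tested. Of 10 stem cell markers all had UMIs, among them Hlf, a stem cell transcription factor, in 1812 cells. Procr, a surface marker of long-term stem cells, had UMIs in 540 cells, Slamf1 (CD150) in 92 and the reporter in 71.

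For comparisons across cells, 7 classes without overlap were formed from marker UMIs. There were 27 cells with at least 10 UMIs of granulocyte genes (Camp, Ltf, Ngp, Lcn2, Mpo, Elane, Ctsg, Prtn3) and 9 with at least 3 UMIs of basophil or mast cell genes (Mcpt8, Prss34, Cpa3, Ms4a2, Fcer1a). Of the remaining cells, 149 had Gata1 or Klf1, genes of the erythroid and megakaryocyte programme, 202 had Pf4, a platelet alpha-granule chemokine, 477 had at least 3 UMIs of G2/M genes and 452 had Procr, taken in that order. The other 2086 had none of these. Cells without a marker UMI may still express the marker at this depth, so these classes are sets of cells with a detected transcript.

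Kit had 3848 UMIs in 1749 of the 3402 cells (51.4%, exact interval 49.7 to 53.1%). Its level was 706 counts per 1e+06 UMIs (CPM) in aliquot 1 (666 to 748) and 668 in aliquot 2 (643 to 693). In 928 cells 2 or more Kit UMIs were counted, up to 17 in 1 cell. After each cell was thinned to 500 UMIs, Kit was found in 27.2% of cells. Granulocyte cells, used here as a reference for Kit although progenitors among them may express it, showed it in 22.2% at a median of 2561 UMIs and in 3.70% (1 of 27 cells) after thinning. The thinned Kit share in all kept cells thus lay above the upper bound of the granulocyte share, 19.0%.

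Ifngr1 and Cxcr4 were next in the number of cells that held them. Ifngr1 stood at 206 CPM in aliquot 1 (185 to 229) and 183 in aliquot 2 (171 to 197), in 657 cells (19.3%). Cxcr4 stood at 218 CPM (196 to 241) and 171 CPM (159 to 185), in 707 cells (20.8%). After thinning these shares were 8.55% and 8.20%. The variance over mean of thinned Ifngr1 counts was 1.07 in aliquot 1 and 1.43 in aliquot 2, with up to 14 UMIs in 1 cell of aliquot 2. For Cxcr4 it was 1.13 and 1.15, so the order of the pair differed between aliquots.

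Csf3r was at 90.2 CPM in aliquot 1 (76.3 to 106) and 127 in aliquot 2 (116 to 138), in 541 cells (15.9%), of which 452 held a single UMI. It is known from granulocytic cells, and yet cells with Gata1 or Klf1 showed it in 5.30% after thinning (2.31 to 10.2%), against 5.08% in cells without, at medians of 2340 and 1379 UMIs before thinning. In aliquot 2 the barcodes under 200 UMIs, too shallow to count as cells, held Csf3r at a higher level than the kept cells, 198 CPM (162 to 240). In granulocyte cells 7.41% showed it after thinning (0.910 to 24.3%). A Csf3r UMI in a single cell of aliquot 2 could thus not be told from background. In aliquot 1 the barcodes under 200 UMIs held 2 Csf3r UMIs, 66.0 CPM (7.99 to 238), too few to compare. Whether Gata1 or Klf1 cells lack Csf3r was not tested, so they are no negative control here.

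The remaining 4 genes were sparse. Flt3 had 232 UMIs in 169 cells (4.97%), at 38.4 CPM in aliquot 1 (29.5 to 49.1) and 42.0 in aliquot 2 (35.9 to 48.8). Il6st had 200 UMIs in 163 cells (4.79%), at 32.3 (24.2 to 42.3) and 36.5 CPM (30.8 to 42.9). Csf2rb had 92 UMIs in 70 cells (2.06%), at 12.8 (7.92 to 19.6) and 17.6 CPM (13.8 to 22.2). Epor had 66 UMIs in 55 cells (1.62%), at 8.53 (4.66 to 14.3) and 12.9 CPM (9.64 to 16.9). Both aliquots overlapped in their intervals for each of these 4 genes, and for Kit and Ifngr1, while Csf3r was higher and Cxcr4 lower in aliquot 2 beyond counting error.

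**Figure D1:**
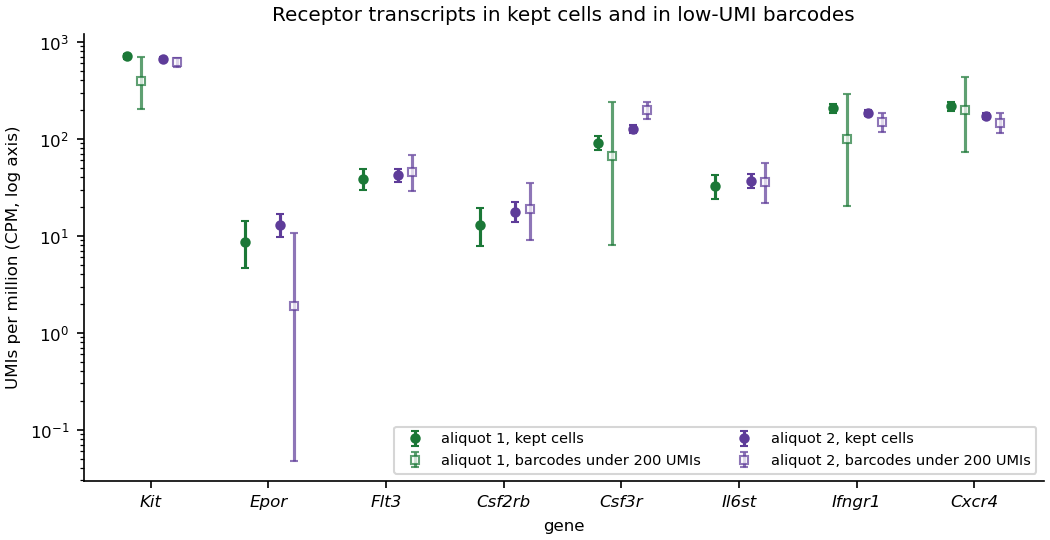
Level of each receptor gene in CPM (log axis), for kept cells (filled circles) and for barcodes under 200 UMIs (open squares), in both aliquots, with exact 95% Poisson intervals. Genes with no UMI in the low barcodes of aliquot 1 have no square, and in aliquot 2 the low barcodes resemble the cells for most genes, with Epor below (1.90 CPM from 1 UMI) and Csf3r above.

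Barcodes too shallow to be kept carried the same receptors. The 6291 barcodes under 200 UMIs in aliquot 2 gave 615 CPM for Kit, 148 for Ifngr1, 146 for Cxcr4, 45.7 for Flt3, 36.1 for Il6st and 19.0 for Csf2rb, from 525618 UMIs in all. Epor had 1 UMI there, 1.90 CPM (0.0482 to 10.6), against 12.9 in the kept cells of that aliquot (9.64 to 16.9), and the intervals overlapped slightly. Free RNA and fragments of cells cannot be told apart in these barcodes. Single UMIs of these genes are for that reason described over sets of cells and not cell by cell.

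Detection followed depth. In aliquot 2 the share of cells with Kit went from 26.3% below 1000 UMIs to 69.3% at 4000 or more, and that of Cxcr4 from 10.2% to 46.5%. Csf3r went from 6.83% to 44.6% over the same range, while Il6st was at 1.46% in the shallowest and 3.96% in the deepest cells. The level of Kit in CPM went the other way, from 729 CPM in the shallowest cells of aliquot 2, through 755 and 666, to 474 in the deepest. In aliquot 1 it was 768 CPM below 1000 UMIs, 693 from 1000 up to 2000 and 454 in the 53 cells above that. Deep cells thus had more Kit UMIs but a smaller fraction of Kit among their transcripts, and G2/M, Gata1 or Klf1 and Pf4 cells were all deeper than the rest. Ratios between cells with and without a marker were for that reason also depth-standardised, that is, taken against the level of the comparison cells in the same aliquot and depth bin, of 10 equal bins per aliquot. The standardised values of all receptor genes are in the plot of ratios by split, and ratios between classes and most of those of other genes are not standardised.

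**Figure D2:**
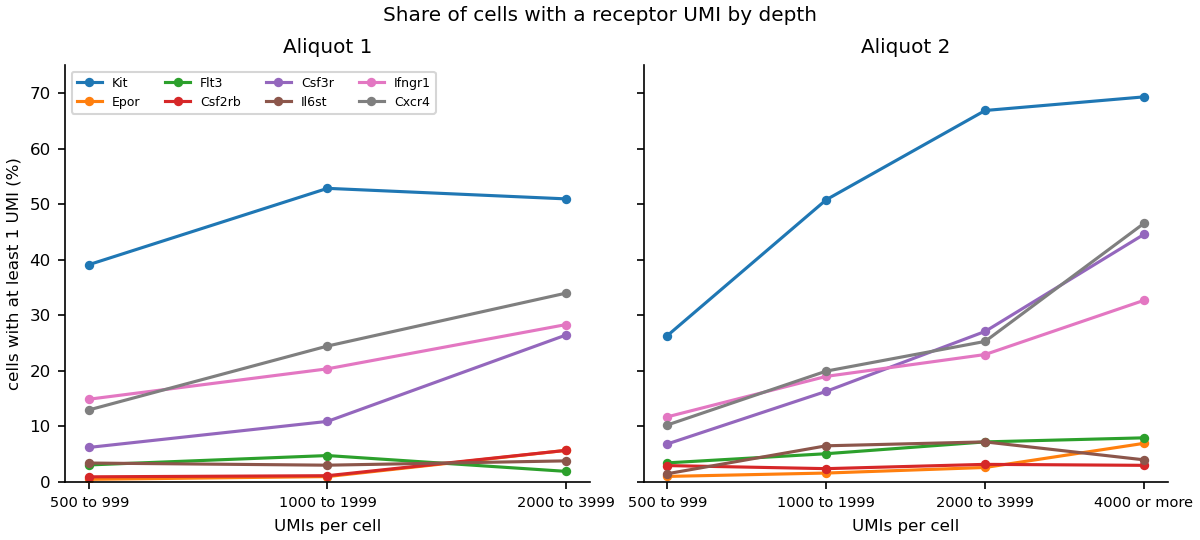
Share of kept cells with at least 1 UMI of each receptor gene (%) by the cell's total UMIs, in aliquot 1 (left) and aliquot 2 (right), each line joining the values of 1 gene. In aliquot 2 Kit goes from 26.3% to 69.3%, and Csf3r and Cxcr4 reach 44.6% and 46.5% in cells of 4000 UMIs or more.

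The largest ratios between classes were in the few granulocyte and basophil or mast cells, and 24 of the 27 granulocyte cells were also in the G2/M set. The granulocyte and the basophil or mast classes held 1.06% of the cells, and Csf2rb had 25% of its UMIs there, 23 of 92. In granulocyte cells it was at 130 CPM in aliquot 1 and 169 in aliquot 2, and over both at 10.9 times the level of all other cells (5.56 to 19.7), from 13 UMIs in 9 cells. In basophil or mast cells it was at 585 CPM (281 to 1077), 40.3 times the rest (18.7 to 78.0), from 10 UMIs in 4 cells, all in aliquot 2. A single cell held 6 of them, and the ratio without that cell was 18.

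Ifngr1 was at 551 CPM in the granulocyte cells of aliquot 1 and 618 in those of aliquot 2, above every other class in both. Over both aliquots this was 3.23 times the rest (2.38 to 4.29), and 2.51 times without the 1 cell that held 14 UMIs. The basophil or mast cells had no Ifngr1 UMI where 3.26 were expected at the level of the rest. Cxcr4 was at 616 and 412 CPM in granulocyte cells, 2.70 times the rest (1.93 to 3.69), and at 699 and 938 CPM in basophil or mast cells, 4.81 times (2.68 to 7.97).

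Kit was lowest in the same cells. It was at 97.2 and 187 CPM in granulocyte cells, 0.225 times the rest (0.120 to 0.385), and at 176 CPM in basophil or mast cells (36.2 to 513), from 3 UMIs. Csf3r was at 194 and 187 CPM in granulocyte cells, 1.65 times the rest with an interval of 0.937 to 2.70. Flt3 and Epor had no UMI in the 27 granulocyte cells, where 3.5 and 0.996 were expected, so absence could not be told from low level at this depth. In these 36 cells the markers that define each class were high by construction, at 65536 CPM in granulocyte and 41447 CPM in basophil or mast cells. Summed stem cell markers were at 629 and 176 CPM, against 3461 CPM in the Procr class, which holds Procr by definition. The stem cell markers Procr, Slamf1, Hoxb5 and Mecom were at 0 in both classes. Slamf1 and Hoxb5 were scarce in all kept cells (19.9 and 13.2 CPM), so their absence could not be told from low level. In the 9 basophil or mast cells the same holds for all 4.

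Among the other 5 classes Kit ran from 547 CPM in Gata1 or Klf1 cells through 590 in G2/M, 639 in Pf4 and 688 in Procr cells to 752 in cells with none of these markers. Intervals of neighbours in that order overlapped. Flt3 was at 50.4 CPM in the cells with none of the markers (44.3 and 53.7 in the aliquots) and at 31.1 in all other cells, a ratio of 1.62 (1.23 to 2.14). It was at 39.2 CPM in G2/M, 38.4 in Pf4 and 30.8 in Procr cells, which overlapped, and at 5.50 CPM (0.666 to 19.9) in Gata1 or Klf1 cells, an interval that reaches the lower bound of the Procr class alone among these 4, 19.3. Il6st was at 51.9 CPM in Procr cells (42.1 and 54.8 in the aliquots), 1.58 times the rest (1.07 to 2.26), and 1.45 times without the cell with most UMIs, a class ratio that is not standardised for depth. Csf3r lay between 107 and 128 CPM in these 5 classes, with overlapping intervals.

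**Figure D3:**
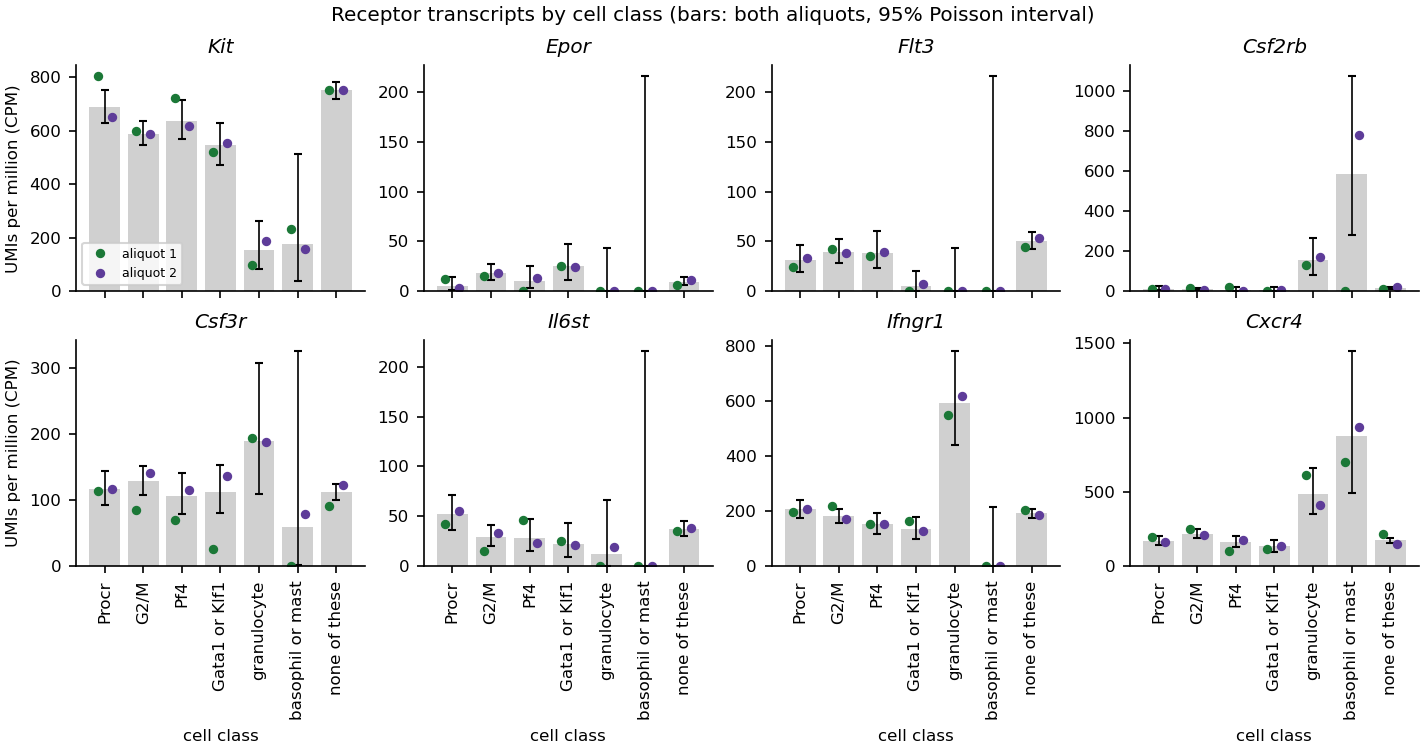
Level of each receptor gene in CPM across 7 cell classes, with bars for both aliquots together, exact 95% Poisson intervals and points for each aliquot (each panel has its own axis). Csf2rb, Ifngr1 and Cxcr4 are highest in granulocyte or basophil cells, and Kit is lowest there.

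Each cell was also set against cells without a given marker, letting the sets overlap. A gene counted as past the fold when its level in the set with the marker was at least 1.5 times or at most 1/1.5 of that in the set without, and only genes with 20 or more UMIs, counted or expected, in the set with fewer cells were measured. In the Procr split, 540 cells with Procr against 2862 without, 0 of the 6 receptor genes with enough UMIs passed, against 15.0% of all genes. Kit was at 807 and 693 CPM with and without Procr in aliquot 1 and at 678 and 665 in aliquot 2, a ratio of 1.05 over both (0.960 to 1.14). Il6st stood at 36.2 CPM with Procr and 31.8 without in aliquot 1, and at 49.3 and 33.7 in aliquot 2. The ratio was 1.41 (0.980 to 1.98), and 1.22 depth-standardised. It was 0.545 on thinned counts, with the Procr set formed anew from those counts. Thinned, Il6st was in 9 of the 540 cells with Procr, 1.67% (0.765 to 3.14%), and in 1.89% of those without (1.42 to 2.45%). These intervals overlap, so the thinned shares do not settle a direction. Flt3 was at 0.763 times (0.502 to 1.12), 0.694 depth-standardised. Csf3r, Ifngr1 and Cxcr4 lay between 0.947 and 1.05 times, all with intervals that include 1.

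In the 151 cells with Gata1 or Klf1, Flt3 was nearly undetected. It had 2 UMIs there where 16.0 were expected from the 3251 other cells, 0 in aliquot 1 (3.25 expected) and 2 in aliquot 2 (12.8 expected). The ratio was 0.125 (0.0151 to 0.458), 0.133 depth-standardised, and it stayed between 0 and 0.168 under all 11 alternatives. Thinned to 500 UMIs, Flt3 was in 0 of the 151 cells (an upper bound of 2.41%) and in 1.97% of the others. With 16.0 expected UMIs it fell short of the 20 needed to be counted past the fold.

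Epor, the receptor of the erythroid hormone, had 9 UMIs in 9 of these cells. It was at 24.9 CPM with and 7.69 without the markers in aliquot 1, and at 24.4 and 12 in aliquot 2. Both aliquots had the higher value in the marked cells, but their intervals overlapped, and the pooled ratio of 2.28 had an interval of 0.990 to 4.63 and became 1.65 depth-standardised. Kit was at 0.790 times (0.682 to 0.911), 0.889 depth-standardised. Ifngr1 was at 0.687 (0.505 to 0.915) and Cxcr4 at 0.708 times (0.520 to 0.943). Ifngr1 was past the fold without its cell with most UMIs (0.567) and without aliquot 1 (0.667). On thinned counts, where none of the 8 genes had 20 UMIs counted or expected, these ratios were 0.517 for Kit, 0.208 for Ifngr1 and 1.14 for Cxcr4. Csf3r was at 0.956 times, with 0.266 in aliquot 1 and 1.08 in aliquot 2, so its aliquots lay on opposite sides of 1.

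Of the 4 receptor genes with enough UMIs, 0 passed the fold in this split, where 24.1% of all genes did. These cells were deeper, with a median of 2340 UMIs against 1379, and 43.0% of them were G2/M cells against 17.5%. Among 10 other erythroid genes, 3 had enough UMIs and all lay above 1, with a median log2 ratio of 2.05, while Hba-a1 and Hbb-bs were at 0 in this class. All 6 measured stem cell markers were below 1, with a median of -1.84. The part of cycling cells in these receptor values was not tested.

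In the 238 cells with Pf4, 2 of 6 measured receptor genes were past the fold, both lower, against 16.5% of all genes in either direction and 9.25% lower. These cells were deeper (median 2169.5 against 1365.5 UMIs), 34.5% of them were G2/M cells against 17.4%, and all 6 measured stem cell markers lay below 1, with 4 past the fold and a median log2 ratio of -0.83. The part of these in the receptor values was not tested beyond the depth-standardised ratios. Ifngr1 stood at 139 CPM with Pf4 and 210 without in aliquot 1, and at 128 and 191 in aliquot 2, a ratio of 0.661 (0.516 to 0.835), 0.686 depth-standardised, and between 0.593 and 0.763 under all alternatives. Both aliquots had the lower value in Pf4 cells, but the ratio lies at the 1.5-fold limit and was inside it when depth-standardised and without granulocyte and basophil or mast cells (0.686). Il6st was at 0.605 times (0.316 to 1.06) from 13 UMIs, but at 1.35 in aliquot 1 and 0.470 in aliquot 2, and at 0.760 depth-standardised, so the aliquots did not share a direction. For Cxcr4 the ratio was 0.789 (0.626 to 0.983), made up of 0.476 in aliquot 1 and 0.906 in aliquot 2. The ratio of Kit was 0.890 (0.796 to 0.993), and 0.982 depth-standardised. Csf2rb had 3 UMIs in these cells where 10.2 were expected, 2 in aliquot 1 (1.15 expected) and 1 in aliquot 2 (9.70 expected), so its aliquots lay on opposite sides of 1. No Pf4 cell was a granulocyte cell, and of the 6 measured genes none was above 1. Il6st (13 UMIs counted, 21.5 expected) and Flt3 (19 counted, 24.5 expected) reached the 20 UMIs only by their expected counts. Their place below 1 among the measured genes is thus favoured by the limit itself.

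The largest split set 634 cells with at least 3 UMIs of 25 G2/M genes against 2768 with fewer. Here 2 of 8 receptor genes were past the fold, against 24.0% of all genes: Epor at 1.87 times (1.11 to 3.13) and Il6st at 0.615 times (0.422 to 0.878). Epor reached the 20 UMIs only by its 28 counted in G2/M cells, where 15.0 were expected, so its place in this count is favoured by the limit itself. Both moved close to 1 when depth-standardised, to 1.14 and 0.934. Kit stood at 564 CPM in G2/M cells and 747 in the others in aliquot 1, and at 530 and 731 in aliquot 2, a ratio of 0.730 (0.676 to 0.788), 0.789 depth-standardised. It lay below 1 under all 11 alternatives, from 0.721 to 0.892. In thinned cells Kit was in 22.6% of G2/M cells (19.4 to 26.0%) and in 28.2% of the others (26.5 to 29.9%), intervals that do not overlap.

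Cxcr4 went the other way. It stood at 269 CPM in G2/M cells and 204 in the others in aliquot 1, and at 208 and 155 in aliquot 2, a ratio of 1.3 (1.14 to 1.48) that was 1.42 depth-standardised and lay between 1.21 and 1.42 under all alternatives. In thinned cells Cxcr4 was in 9.46% of G2/M cells and in 7.91% of the others. Unlike those of Kit, the intervals of these shares overlapped. All 8 granulocyte markers lay above 1 in this split, with a median log2 ratio of 3.31, and of the 27 granulocyte cells 24 were in the G2/M set. Without them and the basophil or mast cells the Cxcr4 ratio was 1.21. Ifngr1 was at 0.976 times, 1.20 depth-standardised and 0.857 without those cells, and Csf2rb at 0.948 times, 1.36 and 0.621. Their aliquots lay on opposite sides of 1, at 1.15 and 0.932 for Ifngr1 and at 2.24 and 0.701 for Csf2rb. The direction of both thus changed with depth, with those 36 cells and between aliquots. Flt3 was at 0.734 (0.528 to 1.00) and Csf3r at 1.03 times.

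The 71 cells with a reporter UMI, called reporter cells here, outnumber the 46 the authors state, and whether some are wild type cells with a stray reporter UMI was not tested. The GFP sort did not select on cKit. Of the 3 receptor genes with enough UMIs there, Kit alone was past the fold, against 19.6% of all genes, at 394 CPM against 686. In aliquot 1 it stood at 425 CPM in reporter cells, from 10 UMIs, and 710 in the others (ratio 0.599, 0.286 to 1.11) and in aliquot 2 at 388 and 676 (0.574, 0.416 to 0.772). Thinned to 500 UMIs, 13 of 71 reporter cells had Kit, 18.3% (10.1 to 29.3%), and 27.3% of the others (25.8 to 28.9%), so the shares overlapped in their intervals. The Kit ratio on thinned counts was 0.877, but it is for the cells that kept a reporter UMI after thinning, not all 71. Fewer than 20 Kit UMIs were counted or expected in those cells. Sort, mouse line and cell source cannot be told apart in this comparison.

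For the other receptors in reporter cells the intervals were wide and included 1. Ifngr1 was at 0.764 times (0.465 to 1.19), and between 0.488 and 0.887 under all 11 alternatives, Cxcr4 at 0.746 (0.447 to 1.17) and Csf3r at 1.20 (0.717 to 1.89). Cxcr4 was at 1.38 in aliquot 1 and 0.610 in aliquot 2, on opposite sides of 1. Flt3, whose expression drives the Cre in these mice, had 4 UMIs in 2 reporter cells where 5.65 were expected, 3 of them in 1 cell. Thinned, it was in 0 of 71, an upper bound of 5.06%, and in 1.92% of the others, so a lower share was not detectable. Thinned reporter cells showed a mean of 0.352 of the 8 receptors per cell, and other cells 0.543. No interval was computed for these means, and for each of the 8 receptors the thinned shares overlapped in their intervals.

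**Figure D4:**
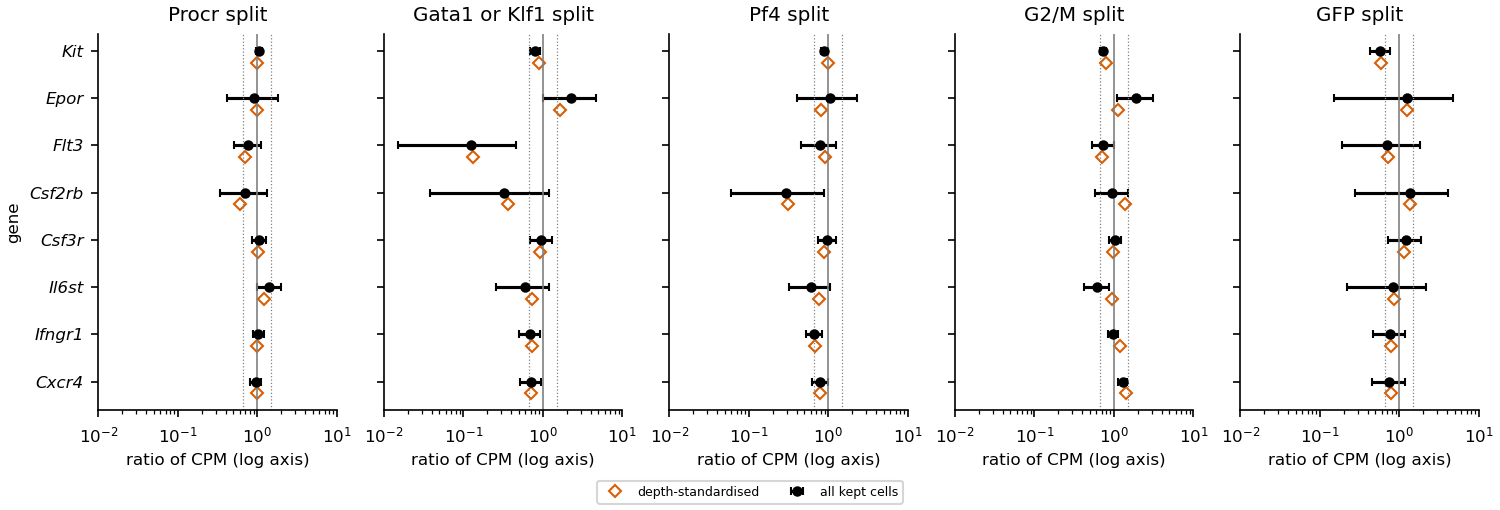
Ratio of the level in cells with a marker to that in cells without it (log axis) for each receptor gene in 5 splits, over all kept cells with exact 95% intervals (circles) and depth-standardised (diamonds). The solid line is 1 and the dotted lines are the 1.5-fold limits. Flt3 lies lowest in the Gata1 or Klf1 split at 0.125, and in the G2/M split Epor and Il6st come close to 1 once depth is standardised.

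Receptor transcripts were next counted together in single cells. No receptor was found in 873 cells (25.7%), 1 in 1326 (39.0%), 2 in 887 (26.1%) and 3 in 261 (7.67%), with at most 5, in 8 cells. For each of the 28 pairs the number of cells with both was set against the number expected if detection were independent within aliquot and depth bin. Ignoring depth, 20 of 28 pairs were above 1, and with depth 15 were.

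For 22 pairs at least 10 cells were expected, and 21 had intervals that include 1. Kit with Csf3r was found in 319 cells where 317 were expected, Kit with Ifngr1 in 358 (357 expected) and Kit with Cxcr4 in 390 (392 expected). The exception was Csf2rb with Ifngr1, in 24 cells where 15.0 were expected, a ratio of 1.60 (1.02 to 2.38). Without granulocyte and basophil or mast cells it was 19 against 11.6, 1.64 (0.988 to 2.56). In each aliquot alone the interval of this pair included 1, at 1.67 (0.614 to 3.64) in aliquot 1 and 1.57 (0.933 to 2.49) in aliquot 2. The intervals were not adjusted for the number of pairs. Epor with Ifngr1 was found in 6 cells where 12.4 were expected, 0.483 (0.177 to 1.05), and Flt3 with Csf2rb in 8 where 3.95 were expected, 2.03 (0.875 to 4.00), which became 8 against 3.22, 2.49 (1.07 to 4.90), without granulocyte and basophil or mast cells. Epor was found with Flt3 in 1 cell (3.33 expected) and with Il6st in none (2.99 expected).

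**Figure D5:**
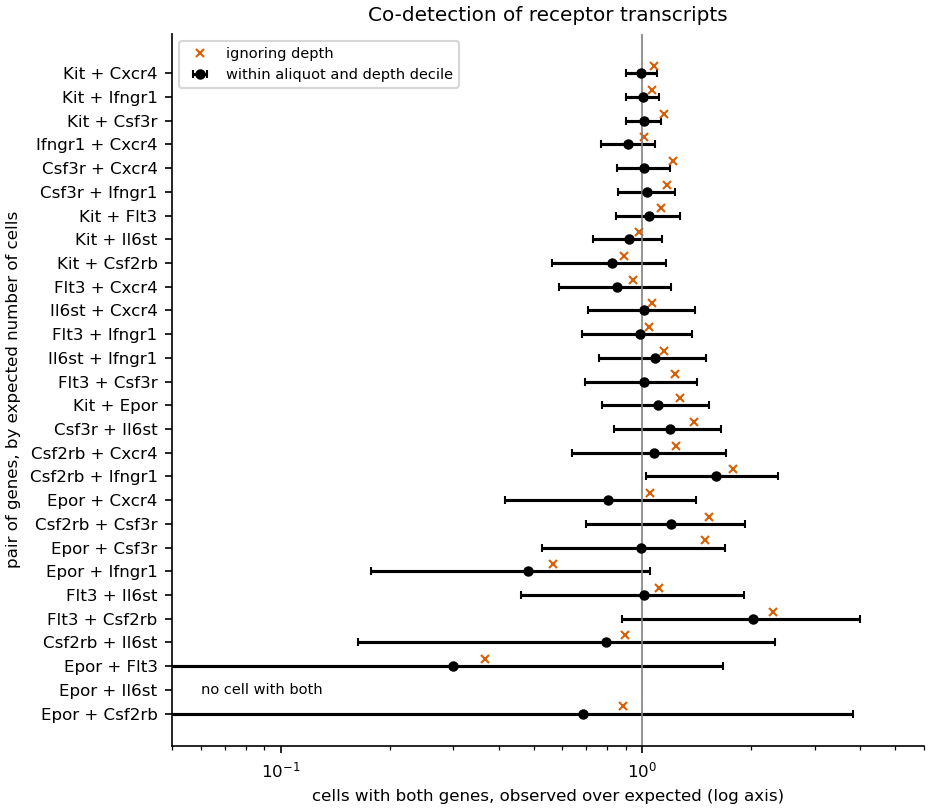
Cells with both genes of a pair over the number expected (log axis), within aliquot and depth bin (circles, 95% Poisson interval of the count, cut at the left edge for 2 pairs) and ignoring depth (crosses). Pairs run from the most expected cells at the top to the fewest. Over both aliquots together, the Csf2rb and Ifngr1 pair is the one of 22 well-filled pairs whose interval does not include 1.

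The partners and signalling genes of these receptors were read from lists of the pathway. Among 14 partner chains and co-receptors were Cd44 (263 CPM), a hyaluronan receptor, and Cd74 (109 CPM), the invariant chain that also binds MIF together with Cxcr4. Cd74 was at 1.83 times in Procr cells (1.52 to 2.19), at 0.474 times in G2/M cells and at 0.0940 times in Gata1 or Klf1 cells (4 UMIs). Ifngr2, the partner of Ifngr1, had 1 UMI in Gata1 or Klf1 cells, 0.113 times (0.00283 to 0.639). Csf2ra, the GM-CSF-binding partner of Csf2rb, was at 1.40 times in G2/M cells (1.02 to 1.93), and Il6ra, which hands interleukin 6 to Il6st, at 0.574 times in Procr cells (0.342 to 0.914). Il27ra, another partner of Il6st, was at 1.13 times there (0.758 to 1.65).

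Of 42 other cytokine and growth factor receptors, 22 had enough UMIs in the Procr split and 17 of them lay above 1. Past the fold were 5, all higher, where 15.0% of all genes were past it in either direction and 6.89% higher. The median log2 ratio of the 22 was 0.34 against 0.00 for all genes. In the G2/M split 21 of 24 lay below 1, with 6 past the fold lower and 1 higher, so that 7 of 24 were past it, against 24.0% of all genes. Tnfrsf1a, a TNF receptor, was at 0.606 times in Pf4 cells (0.447 to 0.805) and 0.633 in Gata1 or Klf1 cells. Tie1, an angiopoietin co-receptor, was at 1.41 times in Procr cells. Crlf2, the TSLP receptor, lay between 0.991 and 1.26 times in the 5 splits, Bmpr2, a BMP receptor, between 0.746 and 1.17 and Il17ra, an interleukin 17 receptor, between 0.747 and 1.16.

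Of 11 JAK and STAT genes all had enough UMIs in the G2/M split, where 10 lay below 1 and 3 were past the fold, a share near the 24.0% of all genes, with a median log2 ratio of -0.44 against -0.04 for all genes. Jak1, the kinase used by Il6st and Ifngr1, was at 0.736 times there (0.671 to 0.806) and at 1.20 times in Procr cells (1.09 to 1.33). Stat3, a main target of Il6st, was at 0.674 times in G2/M cells and 0.973 in Procr cells. Stat5b, used by Epor and Csf2rb, was at 0.947 and 0.940 times. Of 33 adaptors and inhibitors, 22 lay below 1 in G2/M cells, with 7 past the fold, all lower. This is a share near the 24.0% of all genes past it in either direction, and 13.1% of all genes were past it and lower. Pik3r1, the regulatory subunit of PI3 kinase, was at 0.529 times there, 0.800 depth-standardised, and at 1.45 in Procr cells. Grb2, an adaptor, was at 1.03 and 0.974 times. Ptprc (CD45) was at 0.418 times in Gata1 or Klf1 cells (0.305 to 0.561). Rgs18, a regulator of G protein signalling, was at 1.26 times in Pf4 cells and 1.47 in reporter cells (1.08 to 1.95).

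The ligands were scarce in this pool. Of 15 ligand genes, Il11 had 168 UMIs, Flt3l 96, Ctf1 61, Osm 51 and Kitl 4. Epo and Csf3 had 1 UMI each and Il3, Il5 and Il6 had 0. Flt3l, the ligand of Flt3, was at 0.470 times in G2/M cells (0.252 to 0.822), 0.376 depth-standardised. Stem cell markers are given as the background of the splits: 8 of 10 were past the fold and lower in G2/M cells. Of all genes 24.0% were past it in either direction and 13.1% lower. Hlf was at 0.476 times, Mllt3 at 0.319, Ly6a (Sca-1) at 0.520 and Meis1 at 0.723. Depth-standardised, these became 0.810 for Hlf, 0.495 for Mllt3, 0.764 for Ly6a and 0.706 for Meis1, beside 0.789 for Kit.

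Genes of similar pattern were sought over 14 points, the 7 classes in 2 aliquots, by Pearson's r of log2 (CPM + 10), among 5372 genes of at least 200 UMIs. These points share libraries, and the basophil class has 3 cells in aliquot 1, so r is given as a description and beside its value over the 10 points without the granulocyte and the basophil or mast class. Kit was closest to Cd81 (0.97, then 0.81), Scarf1 (0.97, then 0.95) and Mmrn1 (0.97, then 0.91). Flt3 was closest to Adck2 (0.98, then 0.96), Jade2 (0.97, then 0.92) and Isg15 (0.96, then 0.89). Il6st was closest to Rbm26, Arhgef40 and Rdh14, between 0.97 and 0.98, and then between 0.83 and 0.90.

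For Ifngr1, Cxcr4 and Csf3r most values without the small classes were lower than any of those for Kit, Flt3 and Il6st. Fcer1g and Pnisr were the exceptions. Ifngr1 was closest to Cd24a (0.98, then 0.66), Pnisr (0.98, then 0.81) and Txndc11 (0.98, then 0.35). Cxcr4 was closest to Fcer1g (0.96, then 0.88), Arhgap15 (0.96, then 0.58) and Rac2 (0.93, then 0.54). Csf3r was closest to Tnrc6b, Pgls and Psenen, between 0.93 and 0.94, and then between 0.68 and 0.76.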

How the data were processed

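Per the labels' protocols, cells were encapsulated on the inDrops platform. The authors deposited raw UMI counts per gene and droplet barcode for each aliquot, with no normalization. RSEM 1.3.0, SAMtools 1.3.1 and Bowtie 1.1.1 are listed with build GRCm38, per the submitters' processing notes; their roles are not given in the sources used here.

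Barcodes with at least 500 UMIs, reporter excluded, and at most 20% mitochondrial UMIs were kept: 1640734 UMIs in aliquot 1 and 4027333 in aliquot 2. No doublet caller was run and doublets were not removed. Counts were summed over cells and scaled to 1e+06 (CPM), genes defining a split being left out of its totals. Intervals are exact: Poisson for levels, conditional binomial for ratios and Clopper-Pearson for shares. With 1 pool there is no test and no p-value. CPM is not per gene length, so levels of different genes were not compared; total UMIs served only to choose which list members to name. Thinning used seed 1. Thinned shares keep the sets formed from all UMIs, while ratios on thinned counts form the sets anew from the thinned counts. The ratio intervals were tested on simulated Poisson counts, the counting error they assume. That simulation left out variation between cells, so it does not show how well the intervals cover it.

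Receptors and lists were chosen with earlier results of these data known. Named genes are the 8 receptors, the members of each list with most UMIs (6 for partner chains and other receptors, 4 otherwise) and the 3 genes most like each receptor of at least 200 UMIs. Erythroid markers at 0, Kitl, Epo, Csf3, Il3, Il5, Il6, Slamf1 and Procr and the marker genes that define classes are named outside that rule, after their values were seen. Some genes this rule names are not reported here. Alternatives were a stricter cell filter, thinning, depth standardisation, a per-cell mean, a stricter split, each aliquot alone, and leaving out classes or the deepest cells. Likeness without the 2 small classes was added after seeing the data. Figures were drawn with matplotlib 3.10.9, and values computed with pandas 2.3.3, scipy 1.17.1 and numpy 2.4.6 under Python 3.11.15.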

Additional observations from a re-analysis of the deposited data

Results flagged for a closer look

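Barcodes from 200 up to 500 UMIs entered none of the comparisons above, and 6 of the receptor genes were present in these 880 barcodes above the 3 counts that a count of 0 allows. Kit was at 561 CPM, Csf3r at 145, Ifngr1 at 185 and Cxcr4 at 131. Flt3 was at 24.8 CPM from 7 UMIs and Il6st at 17.7 CPM from 5 UMIs. Epor had 2 UMIs and Csf2rb 1. Kept cells gave 679 CPM for Kit, 116 for Csf3r, 190 for Ifngr1, 185 for Cxcr4, 40.9 for Flt3 and 35.3 for Il6st, and over both aliquots the intervals overlapped for these genes except Kit (477 to 655 in the shallow barcodes, 658 to 701 in the cells). By aliquot, Kit overlapped in aliquot 1 (533 to 825, and 666 to 748 in the cells) and was lower in aliquot 2 (371 to 595, and 643 to 693). Cxcr4 was lower in aliquot 2 (49.6 to 152, and 159 to 185). With 2 aliquots there were too few samples to look for an outlying library.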

How the results depend on the processing

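Under 11 alternatives, 390 of 440 single ratios stayed within the counting interval of the reported value, 49 left it, and 1 receptor past the fold changed direction: Il6st in the Pf4 split, with leave-one-out values of 0.470 and 1.35. The number of receptors past 1.5-fold moved as follows. In the Procr split, 0 became 1 with at least 1000 UMIs per cell (Il6st) and 1 without the top cell (Flt3), with 0 for each aliquot alone. In the Gata1 or Klf1 split, 0 became 1 by the mean of per-cell CPM (Cxcr4), 2 under the stricter split (Kit, Ifngr1) and 1 without the top cell (Ifngr1), and was 0 to 1 for single aliquots. In the Pf4 split, 2 became 1 with at least 1000 UMIs, with at most 10% mitochondrial UMIs, under the stricter split, without granulocyte and basophil or mast cells and without the deepest 1% of cells. It became 0 after thinning, depth standardisation or the per-cell mean, and 0 to 1 for single aliquots. In the G2/M split, 2 became 0 after thinning or depth standardisation and 1 under the stricter split, 3 without granulocyte and basophil or mast cells (Csf2rb added), and 0 to 2 for single aliquots. In the GFP split, 1 became 0 after thinning and 2 without the top cell (Kit, Ifngr1), and 0 to 1 for single aliquots. After thinning, 3 receptor genes at most kept 20 UMIs in any split, so a lost call there can come from lost counts or from sets formed anew. Among pairs with at least 10 expected cells, those apart from 1 numbered 1, and 0 in each aliquot alone, 0 without granulocyte and basophil or mast cells, and 2 after thinning, both below 1 (Kit with Csf3r, 32 cells where 46.7 were expected, and Kit with Il6st, 9 where 17.5 were). Except where a construction is named, the cause was not tested. Epor, Csf2rb, Flt3 and Il6st are limited by depth. No paired analysis was possible because both libraries are aliquots of 1 pool.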
